A study of Caenorhabditis elegans with 6 samples.

Results

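The 10 genes described here, *sym-1*, *let-4*, *egg-6*, *lpr-1*, *lpr-3*, *let-653*, *dex-1*, *fbn-1*, *noah-1* and *noah-2*, encode proteins of the precuticle and other apical extracellular matrices of *C. elegans*. They were listed by name, as embryonic and molting matrix genes, and were chosen by their measured difference between both groups, since results of this comparison were in view. They were read by their WormBase identifiers as 10 of the 46739 genes of the count table. All 10 were among the 15003 genes with enough counts to be tested. For that reason their differences are given as a description, and no test of them is offered.

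RNA-Seq counts were analyzed for 6 libraries of whole wild-type Bristol N2 worms, 3 from worms whose *E. coli* carried the empty vector L4440 (control) and 3 labelled Y37A1B.5 RNAi. Y37A1B.5 is the worm ortholog of human selenium-binding protein 1. All worms were raised at 20 °C on OP50 bacteria, moved as young adults to HT115 bacteria carrying one or the other plasmid, and collected after 5 days on them. Each library was made from a large pool of worms, so that a value is an average over all tissues and, in adult hermaphrodites, over any embryos they carried, and fewer cells of a type cannot be told apart from less RNA per cell.

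The precuticle is a transient matrix that epithelia of the worm secrete on their outer face before the collagen cuticle is laid down, in the embryo and again ahead of each larval molt. It holds proteins with zona pellucida (ZP) domains, which polymerize into fibrils, proteins with extracellular leucine-rich repeats, and lipocalins, which are small carriers of lipophilic molecules. In the embryo this matrix keeps the shape of the elongating epidermis and holds open narrow tubes such as the excretory duct and pore. Adult worms have finished molting, so the adults themselves are past the stages for which these genes are best known.

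The libraries held between 34403223 and 46733527 counts. *Y37A1B.5*, the gene named in the label, was counted at 21.8 to 35.8 CPM (counts per 1000000 counts, with library sizes scaled by TMM factors) in the control and at 79.1 to 143 CPM in the labelled libraries, which goes against the label, and the second group is therefore named by its label throughout (log2 fold change 1.85, standard error (SE) 0.22, edgeR adjusted p = 0.000834). Reads of the plasmid and of the worms' mRNA cannot be told apart in this count, which therefore does not measure the knockdown. The study's own qRT-PCR and reporter checks, which it reports as showing the knockdown, were not used here. Markers of epidermis, intestine, body wall muscle, germline and neurons, 6 genes each, were counted in every library except 1 epidermal gene. An adjusted p under 0.05 (edgeR quasi-likelihood test, Benjamini-Hochberg) was reached by 13.7% of the genes tested, 8.85% with a lower and 4.81% with a higher level in the labelled libraries. Their median log2 fold change was −0.028.

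Of the 10 matrix genes, 8 were among the genes called lower in the labelled libraries, against that background of 8.85%, and for the same 8 the groups did not overlap, against 22.1% of all genes tested that lay lower without overlap. Nothing is read from either count, since the genes were chosen with these values known. The 8 genes stood at 42.8% to 56.1% of their control level. *egg-6* and *lpr-1* were not called, and their groups overlapped. The median log2 fold change of all 10 genes was −0.91.

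**Figure D1:**
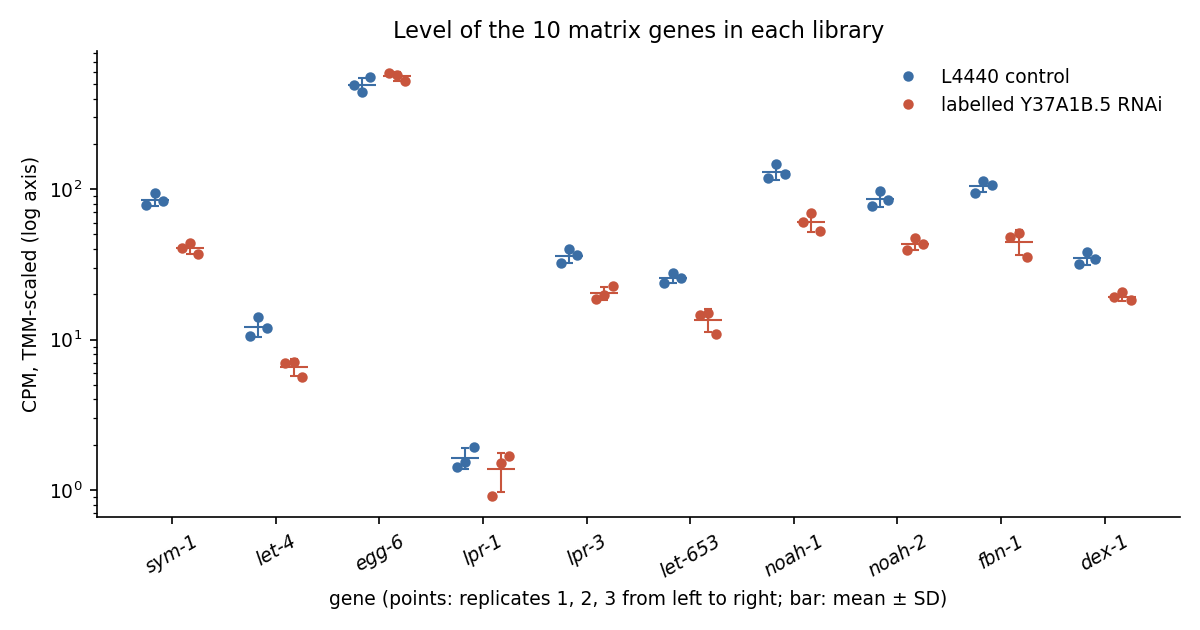
Level of each matrix gene in CPM (TMM-scaled, log axis) in the 3 control libraries and the 3 libraries labelled Y37A1B.5 RNAi. Points are libraries and bars the mean ± SD. For 8 genes all labelled libraries lie below all control libraries, while *egg-6* and *lpr-1* overlap.

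The proteins with extracellular leucine-rich repeats were *sym-1*, *let-4* and *egg-6*. *sym-1* (WBGene00006366, chromosome X, 14581622 to 14584378, plus strand, WBcel235) encodes a secreted protein of the embryonic sheath that surrounds the elongating epidermis. It stood at 78.8, 93.6 and 83.3 CPM in control replicates 1 to 3 and at 40.5, 43.9 and 36.99 CPM in labelled replicates 1 to 3. All labelled libraries lay below all controls, with a mean of 40.5 ± 3.47 against 85.3 ± 7.59 CPM (SD, n = 3) and a log2 fold change of −1.07 (SE 0.088). *let-4* (WBGene00002282, chromosome X, 14577935 to 14580923, plus strand) encodes a transmembrane protein needed to keep epithelial junctions of the excretory duct and pore intact. Its levels were 10.65, 14.04 and 11.9 CPM in the control and 7.01, 7.08 and 5.61 CPM in the labelled libraries. The groups were apart, and the log2 fold change was −0.89 (SE 0.13).

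*egg-6* (WBGene00010621, chromosome I, 8676666 to 8681325, minus strand), which encodes another transmembrane protein of this class with a role in the same tubes, was not called. Control replicates 1 to 3 held 493, 442 and 553 CPM and labelled replicates 1 to 3 held 593, 577 and 521 CPM. The third labelled library lay within the control range, so the groups overlapped, and the log2 fold change was 0.18 (SE 0.0999). Within a library, the level of *egg-6* per kilobase of exon was 3.40 to 4.79 times that of *sym-1* in the control and 9.47 to 10.6 times in the labelled libraries.

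Lipocalins were represented by *lpr-1* and *lpr-3*. *lpr-3* (WBGene00012261, chromosome X, 11057401 to 11059793, plus strand) encodes a component of the precuticle itself. It was counted at 32.3, 39.99 and 36.3 CPM in the control and at 18.6, 19.7 and 22.6 CPM in the labelled libraries. The groups did not overlap, at a log2 fold change of −0.83 (SE 0.10), the smallest decrease of the 8 genes. *lpr-1* (WBGene00002393, chromosome I, 557375 to 561671, plus strand), whose secreted product is needed for an open excretory duct, was the least counted of the 10. It had 49, 56 and 70 counts in the control and 31, 67 and 68 counts in the labelled libraries, that is 1.43, 1.55 and 1.93 against 0.916, 1.51 and 1.69 CPM. Labelled replicate 1 was the low library and the others lay within the control range. The log2 fold change of −0.24 had a SE of 0.23, and the labelled libraries had a coefficient of variation of 29.4%, so a change of *lpr-1* could not be told from the spread between these libraries.

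Genes with ZP domains made up the largest class. *noah-1* (WBGene00016422, chromosome I, 5874416 to 5878958, minus strand) and *noah-2* (WBGene00009926, chromosome IV, 14091254 to 14096626, plus strand) are relatives of the *Drosophila* matrix gene *nompA* and act in the embryonic sheath during elongation. *noah-1* stood at 118.9, 148 and 126 CPM in the control and at 60.1, 69.2 and 52.5 CPM in the labelled libraries. For *noah-2* the values were 76.8, 96.7 and 84.3 CPM against 39.5, 47.4 and 42.9 CPM. Neither gene overlapped between groups, and the log2 fold changes were −1.11 (SE 0.11) and −0.99 (SE 0.098). The ratio of *noah-1* to *noah-2* per kilobase was 1.05, 1.03 and 1.01 in control replicates 1 to 3 and 1.03, 0.985 and 0.826 in labelled replicates 1 to 3. Only the third labelled library stood apart in this ratio. A like steadiness was seen for *let-653* to *dex-1*, at 0.911 to 1.17 over all libraries, so it is not particular to the *noah* genes. The ratio of *fbn-1* to *lpr-3* varied more, from 0.337 to 0.638.

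*let-653* (WBGene00002827, chromosome IV, 11885613 to 11891082, plus strand) encodes a mucin-like ZP protein that lines the lumen of the excretory duct and of the vulva. Control libraries held 23.7, 27.7 and 25.7 CPM and labelled libraries 14.7, 15.1 and 10.9 CPM, without overlap, and the log2 fold change was −0.92 (SE 0.12). *fbn-1* (WBGene00022816, chromosome III, 7625386 to 7641078, plus strand), the worm's fibrillin-related gene, encodes a long ZP protein that links the epidermis and pharynx to the matrix. It had 94.9, 113 and 107 CPM in the control and 48.2, 51.2 and 35.2 CPM in the labelled libraries. This was the largest decrease of the 10 genes, to 42.8% of the control, with a log2 fold change of −1.23 (SE 0.13). The last 45 bp of *fbn-1* overlap *upp-1* on the opposite strand, whose log2 fold change was 0.14 (edgeR adjusted p = 0.191), and the authors counted reads by strand.

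*dex-1* (WBGene00017028, chromosome III, 5526104 to 5535507, plus strand) encodes a matrix protein that resembles mammalian zonadhesin and anchors the tips of sensory dendrites together with the ZP protein DYF-7. It was counted at 31.7, 38.5 and 34.1 CPM in the control and at 19.2, 20.6 and 18.3 CPM in the labelled libraries, which is a mean of 34.8 ± 3.44 against 19.3 ± 1.16 CPM (SD, n = 3). The labelled libraries were close to each other and all below the control, at a log2 fold change of −0.85 (SE 0.090).

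Per kilobase of exon, the control levels spanned from 0.980 ± 0.156 CPM for *lpr-1* to 147 ± 16.5 CPM for *egg-6* (SD, n = 3). Below *egg-6* came *sym-1*, *noah-1* and *noah-2* with 34.97 ± 3.11, 34.4 ± 3.98 and 33.5 ± 3.92 CPM per kilobase, whose control values overlapped. *lpr-3* followed at 17.5 ± 1.87, then *fbn-1*, *let-653* and *dex-1* at 10.98 ± 0.963, 9.75 ± 0.761 and 8.63 ± 0.854, neighbours of which overlapped as well, and *let-4* at 4.85 ± 0.683. In the labelled libraries *egg-6*, *lpr-3*, *let-4* and *lpr-1* kept their ranks of 1, 5, 9 and 10, while *noah-2*, *sym-1* and *noah-1* stood within 15.96 to 16.88 CPM per kilobase, and *fbn-1* moved from rank 6 to rank 8. With the longest transcript in place of all exons the control order was the same for the 10 genes.

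The 8 lower genes had a like order among libraries of the same group. How many of all genes tested share this order was not counted, so it cannot be called particular to the 8. In the control, all 8 were lowest in replicate 1 and highest in replicate 2. The same control order was seen in *dyf-7*, *mlt-11*, *dlg-1* and *jmjd-3.2*, described below, but not in *cutl-16* or *cutl-9*. In the labelled group, 7 of 8 were highest in replicate 2 and 6 of 8 were lowest in replicate 3, which has the lowest values for *fbn-1*, *noah-1*, *let-653*, *let-4*, *sym-1* and *dex-1*. *lpr-3* was the exception, with its highest labelled value in replicate 3. Against the control mean, the median log2 ratio of the 10 genes was −0.91, −0.82 and −1.06 in labelled replicates 1 to 3. For *fbn-1* the log2 ratios were −1.12, −1.04 and −1.57, and for *lpr-3* they were −0.96, −0.88 and −0.68.

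**Figure D2:**
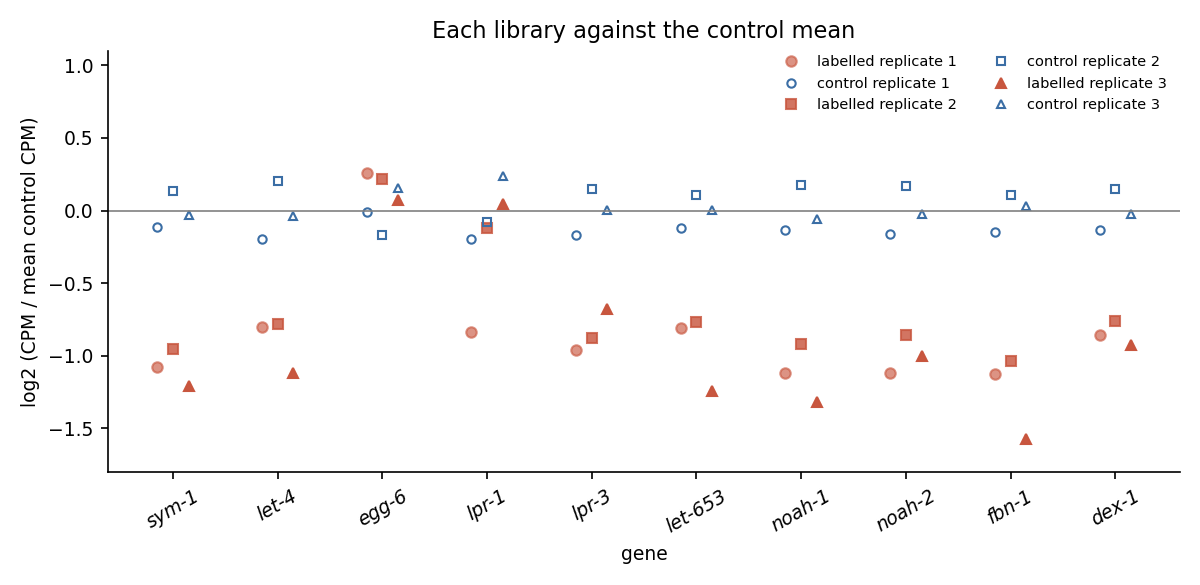
Log2 ratio of each library's CPM to the mean of the 3 control libraries, for each matrix gene. Filled symbols are the libraries labelled Y37A1B.5 RNAi and open symbols the control libraries, with 1 symbol shape per replicate number. The third labelled library reaches −1.57 for *fbn-1* and −0.68 for *lpr-3*.

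All 10 genes are longer than the median gene tested. Their exons cover a median of 2600 bp, from 1669 bp in *lpr-1* to 9554 bp in *fbn-1*, against 1364 bp. In these libraries the level of long genes was lower overall in the labelled group, with a median log2 fold change of −0.25 for the longest 10% of the genes tested and 0.094 for the shortest 10%. When the trend with exon length was taken out of each library, the log2 fold change of *fbn-1* moved from −1.23 to −0.73, that of *dex-1* (4031 bp) from −0.85 to −0.58 and that of *noah-1* (3796 bp) from −1.11 to −0.86. *sym-1* (2438 bp) moved from −1.07 to −0.93 and then had the largest decrease. The same 8 genes were called lower, with log2 fold changes from −0.93 to −0.58. *egg-6* moved to 0.40 and was then called higher, as it also was at 0.24 without labelled replicate 3. How much of the decreases goes with transcript length was not tested beyond this.

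**Figure D3:**
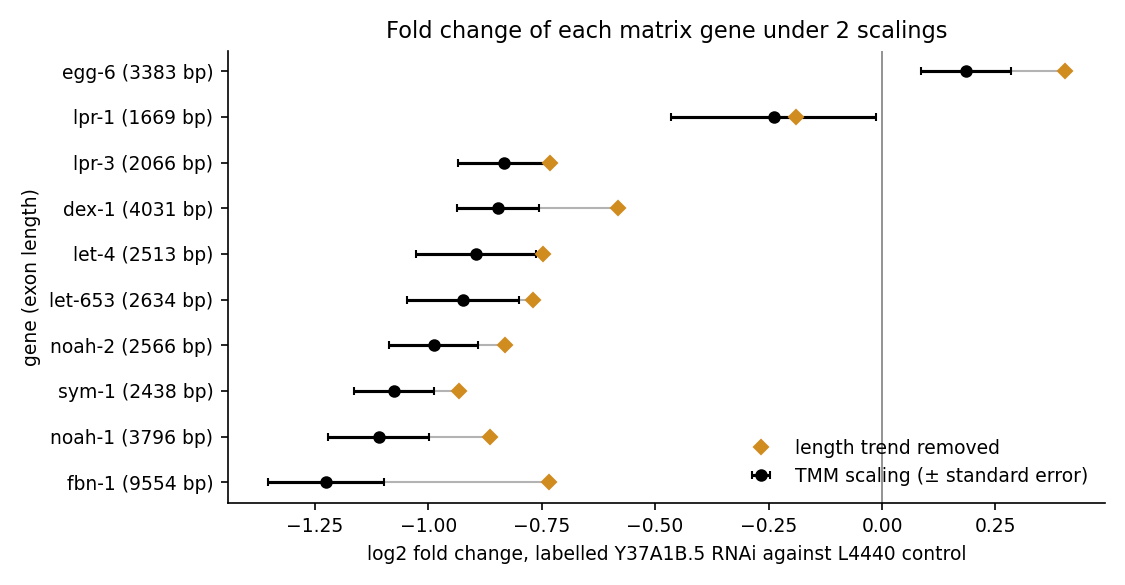
Log2 fold change of each matrix gene between the libraries labelled Y37A1B.5 RNAi and the control (labelled over control), with TMM scaling (circles, ± SE) and with each library's trend on exon length removed (diamonds). The exon length stands beside the name. The longest gene, *fbn-1*, moves from −1.23 to −0.73 and *egg-6* from 0.18 to 0.40.

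Some of the genes lie beside relatives. *let-4* and *sym-1* follow each other on chromosome X with 698 bp between them, both inside the span of *C44H4.4*, a gene of the opposite strand. *C44H4.4* had a log2 fold change of −0.31 (edgeR adjusted p = 0.0533). *lron-1*, another gene with extracellular leucine-rich repeats 1809 bp upstream of *let-4*, was counted at only 0.475 CPM in the control and 0.412 CPM in the labelled libraries, and *tap-1*, the next gene downstream of *sym-1*, at 13.4 and 12.8 CPM (edgeR adjusted p = 0.761 and 0.649). The ratio of *sym-1* to *let-4* per kilobase was 6.87 to 7.63 in the control and 5.96 to 6.80 in the labelled libraries.

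*lpr-3* opens a row of lipocalin-related genes on the plus strand of chromosome X, with *lpr-6* 200 bp behind it and *lpr-5* and *lpr-4* after that. Of these, *lpr-5* fell from 6.68 ± 1.20 to 4.203 ± 0.335 CPM (SD, n = 3), at a log2 fold change of −0.67 (SE 0.14, edgeR adjusted p = 0.0152), and *lpr-4* fell from 4.26 ± 0.813 to 2.50 ± 0.152 CPM (SD, n = 3), at a log2 fold change of −0.77 (SE 0.16, edgeR adjusted p = 0.0130). *lpr-6* had 3.85, 5.47 and 5.59 CPM in the control and 2.45, 3.17 and 3.97 CPM in the labelled libraries, which overlap, and a log2 fold change of −0.63 that did not pass (edgeR adjusted p = 0.0544). It was called lower in 6 of the 14 alternative fits. Among these were DESeq2 (DESeq2 adjusted p = 0.0264) and the fit with the length trend removed (edgeR adjusted p = 0.0352). The calls of *lpr-5* and *lpr-4* were lost without control replicate 2 (edgeR adjusted p = 0.0550 for *lpr-5* and 0.0575 for *lpr-4*). *C09F12.2*, 421 bp upstream of *lpr-3*, stood at 1.15 CPM in both groups (edgeR adjusted p = 0.965), and *lpr-2*, on chromosome IV, at 3.42 and 3.54 CPM (edgeR adjusted p = 0.871). Reads that fit several genes were not counted, so that values of such related neighbours are less certain where their sequences are alike.

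**Figure D4:**
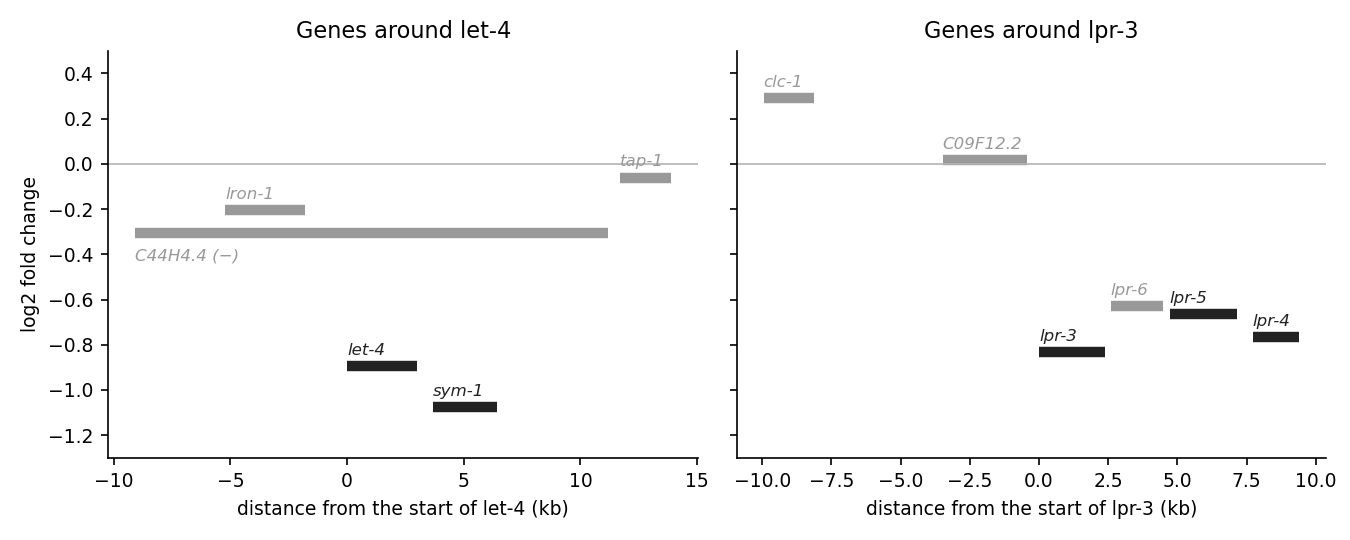
Log2 fold change of the genes around *let-4* (left) and *lpr-3* (right), drawn to scale by distance in kilobases from the start of the named gene. Black bars are genes called lower, gray bars genes not called, and (−) marks the minus strand. *let-4* and *sym-1* lie at −0.89 and −1.07, *lpr-3* to *lpr-4* between −0.83 and −0.63, and the other genes drawn closer to 0. Genes past *lpr-4* were not drawn.

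Other genes of the pathway were taken from lists of known members, written with earlier results of these data known. Of 28 further ZP-domain genes tested (of 36 listed), 9 were called lower, the remaining 19 were not called, and the median log2 fold change was −0.49. *dyf-7*, the partner of *dex-1* in dendrite anchoring, fell from 15.04 ± 0.673 to 7.29 ± 0.757 CPM (SD, n = 3), with all labelled libraries (6.59, 7.17 and 8.09 CPM) below all controls (14.4, 15.7 and 15.02 CPM), at a log2 fold change of −1.04 (SE 0.10, edgeR adjusted p = 0.000560). The cuticlin-like genes *cutl-16* and *cutl-9* fell by 0.87 and 0.98 on the log2 scale (edgeR adjusted p = 0.00188 and 0.00251). These 3 genes stayed called in each alternative, those without 1 library included. Among 5 further lipocalin-related genes the 2 called lower are *lpr-4* and *lpr-5*, at a list median of −0.65.

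Molting factors, the proteases, protease inhibitors and receptors that remove and renew the cuticle, had 12 of 21 tested genes called lower and 9 not called, with a median log2 fold change of −0.33. When the length trend was removed, 9 were called lower and the median was −0.21. *mlt-11*, a secreted protein with protease inhibitor domains, had 57.8, 77.4 and 64.5 CPM in the control and 28.5, 32.5 and 22.02 CPM in the labelled libraries, without overlap, at a log2 fold change of −1.27 (SE 0.14, edgeR adjusted p = 0.000685). *mlt-10* fell from 20.4 ± 0.364 to 14.1 ± 0.121 CPM (SD, n = 3; log2 fold change −0.54, edgeR adjusted p = 0.00193). *lrp-1*, a large endocytic receptor needed for molting, fell by 0.55 on the log2 scale (edgeR adjusted p = 0.00482), but stood at 0.10 with the length trend removed (edgeR adjusted p = 0.511, its alternatives ranging from 5.10e-08 to that value). The count of 12 was 7 without control replicate 1, 4 without control replicate 2, 7 without labelled replicate 1 and 6 without labelled replicate 2.

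Of 13 transcription factors of molting and epidermis, 4 were called lower and the others were not called, at a list median of −0.23. This median was −0.10 with the length trend removed, where 4 were called lower as well. *nhr-25*, a nuclear receptor needed for epidermal development and molting, fell from 18.4 ± 0.734 to 10.04 ± 0.878 CPM (SD, n = 3; log2 fold change −0.87, SE 0.093, edgeR adjusted p = 0.000634). *elt-1*, the GATA factor that specifies embryonic epidermis, fell by 0.48 and *nhr-67* by 0.77 on the log2 scale (edgeR adjusted p = 0.00312 and 0.0115). Without control replicate 2 the count was 2, and *nhr-67* was no longer called (edgeR adjusted p = 0.0544).

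Junction and attachment genes, whose products join epidermal cells and tether them to the apical matrix, had 7 of 18 called lower at a median of −0.27. *dlg-1*, which encodes a scaffold of the apical junction, fell from 159 ± 14.1 to 91.6 ± 7.69 CPM (SD, n = 3; log2 fold change −0.79, SE 0.090, edgeR adjusted p = 0.000710). *mua-3*, a transmembrane matrix receptor of the attachment structures, and *ajm-1*, a junction protein, fell by 1.04 and 0.72 on the log2 scale (edgeR adjusted p = 0.00320 and 0.0110). This list holds very long genes. With the length trend removed, *mua-3* and *ajm-1* stood at −0.47 and −0.30 and the list median at −0.035, with 5 genes called lower and 1 higher. Without control replicate 1, 2 or 3 the 7 became 4 in each case.

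Of 6 furrow collagens, which pattern the larval and adult cuticle, *dpy-10* alone was called lower (log2 fold change −0.52, edgeR adjusted p = 0.0296), at a list median of −0.51. It was not called without control replicate 2 or 3, without labelled replicate 1 or 2, or when scaled to 3 reference genes (edgeR adjusted p from 0.0527 to 0.112), while the count was 2 without control replicate 1, 3 without labelled replicate 3 and 5 without a filter on low counts. *col-19*, a collagen of the adult cuticle, went the other way. It had 11.1, 18.1 and 17.4 CPM in the control and 26.1, 30.6 and 21.9 CPM in the labelled libraries, at a log2 fold change of 0.75 (SE 0.17, edgeR adjusted p = 0.0216). Its call was lost without labelled replicate 2 (edgeR adjusted p = 0.0590), and the median of the 4 adult cuticle collagens was −0.11.

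**Figure D5:**
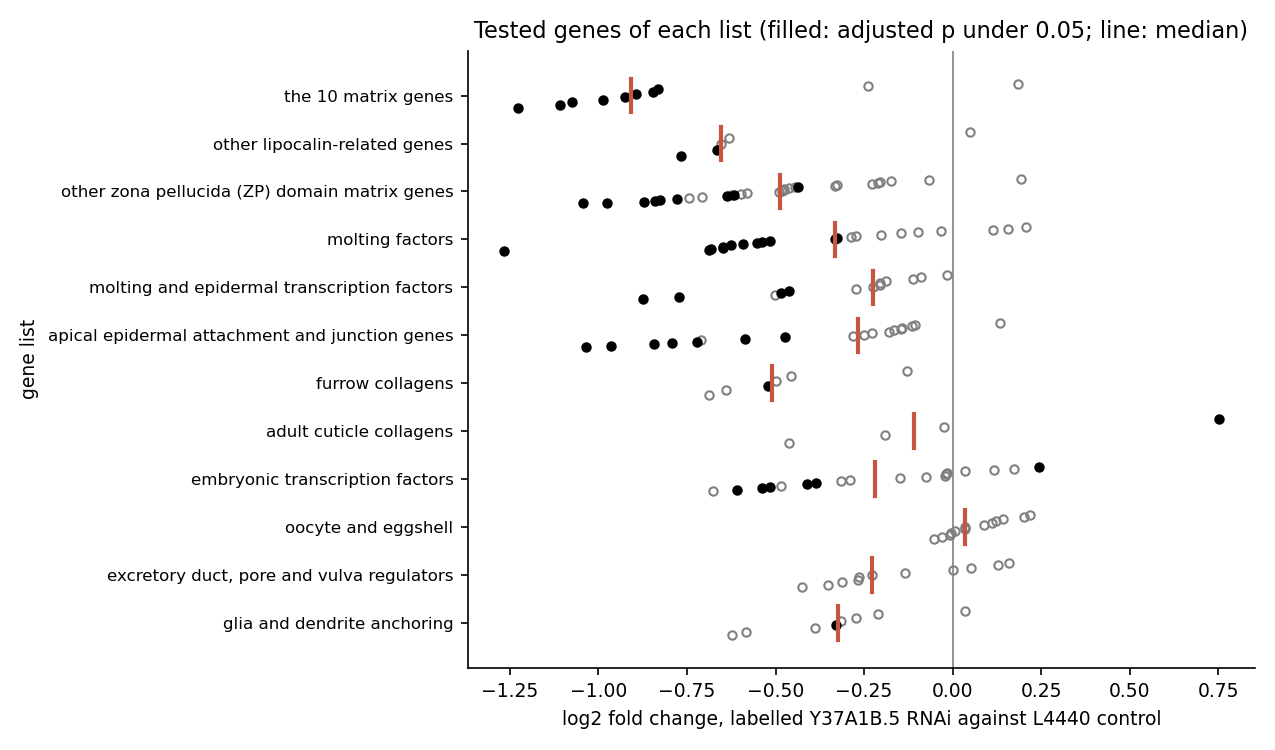
Log2 fold change of each tested gene, by list, between the libraries labelled Y37A1B.5 RNAi and the control (labelled over control). Filled circles are genes past an adjusted p of 0.05, open circles genes that were not, and the line is the median of the list. The 10 matrix genes have a median of −0.91, the further ZP genes −0.49, the molting factors −0.33 and the oocyte and eggshell genes 0.036.

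Since the matrix genes are known from embryos and larvae, markers of other cells that the worms could hold were measured beside them. Of 18 embryonic transcription factors tested (of 22 listed), 5 were called lower and 1 higher, and the median was −0.22. The summed level of all 22 was 403 to 423 CPM in the control and 358 to 391 CPM in the labelled libraries, and 20 of them were counted in every library. *ceh-13*, a Hox gene, fell by 0.61 on the log2 scale (edgeR adjusted p = 0.00416), *tbx-8* and *tbx-11*, T-box genes of the embryonic epidermis and muscle, by 0.54 and 0.51 (edgeR adjusted p = 0.0104 and 0.0167), and *pal-1*, a maternally supplied homeobox gene named after its values were seen, rose by 0.24 (edgeR adjusted p = 0.0481). The 5 were 2 without control replicate 1 or 2 and 3 without labelled replicate 1, *tbx-11* was not called in these fits, and the call of *pal-1* was lost in 5 of the 6 fits without 1 library. Oocyte and eggshell genes, 13 of 13 of which were tested and counted in every library, summed to 12185 to 14064 CPM in the control and 12795 to 15092 CPM in the labelled libraries. None was called with edgeR (0 at an unadjusted p under 0.05), while DESeq2 called 1 higher, and their median was 0.036. The part of embryos, larvae or oocytes in the decreases of the matrix genes was not tested.

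Regulators of the excretory duct, pore and vulva, the tissues in which several of the 10 genes act, had none of 11 called with edgeR (2 lower at an unadjusted p under 0.05) or DESeq2, at a median of −0.23. Their median was 0.039 with the length trend removed, and 1 was then called higher. Of 8 genes of glia and dendrite anchoring, *mec-8* alone was called lower (log2 fold change −0.33, edgeR adjusted p = 0.0241), at a median of −0.32. That median was −0.089 with the length trend removed. *mec-8*, an RNA-binding protein gene for which *sym-1* was found as a synthetic lethal partner, was not called without control replicate 1, control replicate 2 or labelled replicate 1 (edgeR adjusted p = 0.0597 to 0.119). Nor was it called when scaled to the 3 reference genes (edgeR adjusted p = 0.0630). The list had none called in that scaling or without control replicate 2 or labelled replicate 1, and 4 without labelled replicate 3. Of the tissue markers, *col-19* and the muscle gene *pat-10* (log2 fold change 0.54, edgeR adjusted p = 0.0329) were called higher and the neuronal gene *unc-31* (−0.46, edgeR adjusted p = 0.0324) lower. Yet 4 of the 6 muscle markers had a negative log2 fold change, down to −0.69. Of the muscle markers, 2 were lower at an unadjusted p under 0.05, and DESeq2 called 1 lower and 1 higher. Likewise 5 of the 6 epidermal markers had a negative log2 fold change, at a list median of −0.20. The call of *pat-10* was lost without control replicate 1 or 2 and that of *unc-31* in 5 of the 6 fits without 1 library. *unc-31* was also not called when scaled to the reference genes (edgeR adjusted p = 0.0590) or with the length trend removed (−0.12, edgeR adjusted p = 0.462). The summed markers of intestine ranged from 20389 to 26808 CPM in the control and from 12508 to 23605 CPM in the labelled libraries, and those of germline from 1928 to 2111 and from 1811 to 2299 CPM. None of the 3 reference genes *cdc-42*, *tba-1* and *pmp-3* was called with edgeR or DESeq2 (0 at an unadjusted p under 0.05), nor any intestinal or germline marker with edgeR (1 of each higher at an unadjusted p under 0.05), while DESeq2 called 1 germline marker higher. The pathway and cell type lists together, tissue markers and reference genes aside, held 158 genes outside the 10, of which 145 were tested. They had 41 called lower and 2 higher, and the 41 were 19 without control replicate 2.

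Genes whose levels across the 6 libraries were most like the mean profile of the 10 matrix genes were searched among the 8872 genes that averaged 5 CPM or more. Likeness was the root mean square difference of centred log2 levels over the 6 libraries. The 5 nearest were *dlg-1* (0.029), *jmjd-3.2* (0.039), *igcm-3* (0.046), *efl-3* (0.046) and *olrn-1* (0.055), with log2 fold changes of −0.79, −0.85, −0.83, −0.76 and −0.85 that this choice fixes. *jmjd-3.2* for example stood at 18.8, 21.2 and 19.4 CPM in the control and at 11.1, 11.7 and 10.3 CPM in the labelled libraries. Of the members, *dex-1* was nearest to the mean profile (0.039) and *egg-6* farthest (0.504), and 911 other genes were nearer than *fbn-1* (0.254), the farthest of the 8 lower genes.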

How the data were processed

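RNA-Seq counts of 6 libraries were analyzed, 3 per group. The deposited values are raw gene counts that the authors did not normalize, from stranded mRNA libraries (reads quality-trimmed, mapped to WBcel235 with TopHat2 2.1.0 and counted by strand with featureCounts 1.5.0), leaving out reads with several positions or genes. The members and lists were chosen with earlier results of these data known. Counts were filtered with filterByExpr (minimum count 10, total 15), scaled with TMM factors and tested with edgeR 4.0.16 in R 4.3.3, a method that was tested on simulated data. P-values measure the spread between libraries numbered as replicates, which the study describes as independent experiments. Libraries held 34403223 to 46733527 counts, so that counting error is small except for the least counted genes. Lengths, positions and symbols are from Ensembl release 115, which holds 46484 of the 46739 genes; *pqn-47* and *elt-5* found no gene. Each list names at most its 3 genes with the smallest adjusted p past 0.05; the 5 nearest profiles used log2(CPM + 0.5) and a mean of at least 5 CPM, and genes adjacent to members of a family cluster were named too. Alternatives were DESeq2 1.42.0, RLE and upper-quartile factors, scaling to 3 reference genes (*pmp-3*, *cdc-42*, *tba-1*), no filter, at least 10 counts in every library, a replicate block, a loess trend on exon length (span 0.5) taken out, and leaving out each library. The planned motif search in promoters was not run, and no sequence was used here.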

Additional observations from a re-analysis of the deposited data

How the results depend on the processing

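The 8 matrix genes called lower were called lower in each of the 14 alternatives, and their number was 8 in every fit without 1 library. The alternatives refit the same libraries, and the genes were chosen with these values known, so this is a description and no test. The number of matrix genes called higher was 1 (*egg-6*) with the length trend removed and 0 to 1 without 1 library. The count of all genes called lower was 2009 without a filter and 496 to 1611 without 1 library. That of genes called higher was 1203 with DESeq2, 454 when scaled to the reference genes, 1289 without a filter, 1708 with the length trend removed and 217 to 1200 without 1 library. Over the lists outside the 10 genes, 19 to 50 were called lower and 0 to 5 higher without 1 library, and 1 was called higher with upper-quartile factors and 5 with the length trend removed. Of the list genes called, *lrp-1* and *let-805*, an attachment gene, turned their direction with the length trend removed, to 0.10 and 0.020, and *lron-1*, which was not called, ranged from −0.45 to 0.47 over the alternatives. The median of the 10 genes was −0.74 there, and the cause was not tested. The replicate numbers share no stated animal, batch or day. The study does not state whether equal numbers mark the same independent experiment, and the main fit did not pair them. Deviations of libraries with the same number correlated by 0.135, 0.0626 and 0.121 across genes and those with different numbers by −0.146 to 0.0357, so the second pair lies under 0.1, although each library correlated best with its own number. With a replicate block, 1775 genes were called lower and 1142 higher, against 1328 and 722 in the main fit. In that block fit 8 matrix genes and 14 ZP genes were called lower and 1 list gene higher. Counts were lowest for *lpr-1*, with 31 to 70 per library.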
